A study of Rattus norvegicus with 6 samples.

Results

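The choroid plexus is the secretory epithelium that hangs in the brain ventricles and makes cerebrospinal fluid. Its transcripts were followed in bulk RNA of rat hippocampus through 10 genes that code for secreted, transport and junction proteins of that epithelium: Ttr, Enpp2, Sostdc1, Kl, Slc4a5, Clic6, Kcne2, Folr1, Cldn2 and Tmem72. The genes were taken by symbol from the deposited expression table, where each matched 1 row, so that they made up 10 of 22062 genes. Samples came from Sprague Dawley rats, with 3 libraries in the group exposed to single prolonged stress (SPS) and 3 in the Control group. The SPS rats were restrained for 2 hours, made to swim for 20 minutes in water at 24 °C, given 15 minutes of rest and then anaesthetised until unconscious. The Control rats stayed unhandled in their home cages, so that restraint, swimming, handling and anaesthesia cannot be told apart. All rats were of the same strain and no other agent or allele is labelled. Age, sex and the time between stress and dissection are not given in the labels, and whether every library comes from its own rat is not stated. The p-values therefore cover the spread among the 6 libraries alone, which may be technical.

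The plexus lies close to the hippocampus, whose inner surface faces the lateral ventricle. Its epithelial cells pump ions from blood to ventricle, water follows, and carriers for hormones and vitamins are secreted or moved across with the fluid. Tight junctions close the gaps between the cells and form the barrier between blood and cerebrospinal fluid.

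In 1 library, SPS replicate 2, all 10 genes were far above every other library, and in the other SPS libraries none was. They took up 3.99% of all reads in SPS replicate 2 (95% Wilson interval 3.97% to 4.01%, counting error only), and 0.0140% and 0.0153% in SPS replicates 1 and 3, against 0.00898%, 0.0101% and 0.0264% in Control replicates 1 to 3. Control replicate 3 was the next highest library for 8 of the 10 genes, at much lower levels. In bulk RNA, fewer cells of a type and less RNA per cell cannot be told apart. The shallowest library, SPS replicate 2, held 4081184 recovered reads and the deepest, Control replicate 1, held 11838767. Summed hippocampal neuron markers were 6184, 3515 and 6268 CPM (reads per 1000000, after TMM normalisation) in SPS replicates 1 to 3 and 6671, 5096 and 6853 CPM in Control replicates 1 to 3. The library with the highest choroid plexus level thus had the lowest summed neuronal level. Not every neuron gene followed the sum. Prox1, C1ql2 and Dsp were lowest in Control replicate 2, at 5.65, 12.4 and 1.77 CPM. Wfs1 was lowest in SPS replicate 3, at 378 CPM.

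Promoter sequences are shown for the genes that could be matched, since their levels stood out together in 1 library. RefSeq windows for rat build GRCr8 were matched by gene identifier for 4 of the 10 genes, and the 250 bases before the annotated start are printed 5′ to 3′ in the direction of the gene, with CpG dinucleotides in capitals. They lie at chr18:12218508-12218757 on the plus strand for Ttr, chr12:5325753-5326002 (plus) for Kl, chr4:117283044-117283293 (plus) for Slc4a5 and chr4:151645990-151646239 (minus) for Tmem72. These strands, and the direction of each gene, are those of RefSeq. The deposited table puts Ttr on the minus strand, and has the same strand as RefSeq for Kl, Slc4a5 and Tmem72.
Ttr: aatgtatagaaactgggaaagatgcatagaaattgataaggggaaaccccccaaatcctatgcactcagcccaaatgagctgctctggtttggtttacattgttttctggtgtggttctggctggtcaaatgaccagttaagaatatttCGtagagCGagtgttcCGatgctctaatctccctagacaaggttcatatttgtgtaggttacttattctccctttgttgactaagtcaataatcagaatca
Kl: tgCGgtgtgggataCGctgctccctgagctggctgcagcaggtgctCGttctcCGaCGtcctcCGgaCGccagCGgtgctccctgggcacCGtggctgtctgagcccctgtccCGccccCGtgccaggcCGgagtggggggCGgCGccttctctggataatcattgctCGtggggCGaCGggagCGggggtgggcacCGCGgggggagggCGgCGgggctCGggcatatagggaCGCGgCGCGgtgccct
Slc4a5: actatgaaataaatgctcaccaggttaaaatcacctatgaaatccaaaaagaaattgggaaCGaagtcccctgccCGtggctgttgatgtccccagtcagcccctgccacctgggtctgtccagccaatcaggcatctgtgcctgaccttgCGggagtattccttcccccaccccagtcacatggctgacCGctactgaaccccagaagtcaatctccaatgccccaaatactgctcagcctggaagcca
Tmem72: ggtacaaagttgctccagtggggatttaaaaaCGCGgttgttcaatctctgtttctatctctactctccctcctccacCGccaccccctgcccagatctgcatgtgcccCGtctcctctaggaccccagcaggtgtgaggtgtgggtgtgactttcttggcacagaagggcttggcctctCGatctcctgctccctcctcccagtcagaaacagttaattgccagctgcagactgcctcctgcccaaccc
The Kl window had 27 CpG and 73.2% G and C, where that of Ttr had 3 CpG and 40.4%, and those of Slc4a5 and Tmem72 had 4 and 5 CpG with 52.8% and 56.4%. The median over all 33469 windows of this length was 51.2%. None of the 4 windows held TAATCC, a core bound by bicoid-class homeodomain factors, GTAAACA, a forkhead core, or TATAAA, the TATA box, on either strand; these letters occurred in 6.34%, 3.21% and 12.9% of all windows. These letters are not in these windows, which says nothing about the factors.

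Ttr codes for transthyretin, the carrier of thyroxine and of retinol-binding protein that the plexus secretes into cerebrospinal fluid (ENSRNOG00000016275, chromosome 18, 15532962 to 15540177 in the deposited table, whose build is not given in the sources used here). It was at 28.2, 31015 and 31.7 CPM in SPS replicates 1 to 3 and 17.2, 22.8 and 112 CPM in Control replicates 1 to 3. The value in SPS replicate 2 was 276 times that of the next library, Control replicate 3, while the other SPS libraries lay inside the Control range. Ttr alone took up 3.31% of the reads of SPS replicate 2 (3.29% to 3.33%, Wilson).

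Enpp2 codes for autotaxin, the secreted lysophospholipase D that makes lysophosphatidic acid (ENSRNOG00000004089, chromosome 7, 94480395 to 94563001). It was at 103, 3606 and 119.5 CPM in SPS replicates 1 to 3 and 66.8, 64.5 and 124 CPM in Control replicates 1 to 3. Enpp2 is also made by oligodendrocytes, and its level outside SPS replicate 2 was the highest of the 10 genes in CPM in every library. Its value in SPS replicate 2 was 29.1 times the next.

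Sostdc1, a secreted antagonist of BMP and WNT signalling (ENSRNOG00000005770, chromosome 6, 55812746 to 55817066), had 2, 1373 and 0 reads in SPS replicates 1 to 3 and 2, 0 and 23 reads in Control replicates 1 to 3. In CPM these were 0.181, 315 and 0 in SPS, and 0.175, 0 and 5.05 in Control. A count of 0 allows up to 0.538 CPM in SPS replicate 3 and 0.530 in Control replicate 2 (3 reads a library). Outside SPS replicate 2, only Control replicate 3 was above those limits.

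Kl codes for klotho, a membrane protein that serves as coreceptor for FGF23 and is also shed (ENSRNOG00000001092, chromosome 12, 943005 to 987551). It was at 0.724, 468 and 0.538 CPM in SPS replicates 1 to 3 and 0.350, 0 and 10.3 CPM in Control replicates 1 to 3. Control replicate 3, with 47 reads, held more Kl than the other 4 low libraries, which had 0 to 8 reads.

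The sodium bicarbonate cotransporter gene Slc4a5 (ENSRNOG00000010378, chromosome 4, 114918487 to 115002300), whose product moves bicarbonate at the ventricular face, was at 0.905, 592 and 0.717 CPM in SPS replicates 1 to 3 and 0.524, 1.06 and 2.63 CPM in Control replicates 1 to 3. The level in SPS replicate 2 was 225 times the next, second only to Ttr among the 10 genes. In the other 5 libraries it rested on 4 to 12 reads.

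Clic6, of the chloride intracellular channel family (ENSRNOG00000026870, chromosome 11, 32655615 to 32699382), was at 2.81, 654 and 3.40 CPM in SPS replicates 1 to 3 and 1.66, 1.59 and 7.25 CPM in Control replicates 1 to 3. Kcne2, an accessory subunit of potassium channels (ENSRNOG00000029811, chromosome 11, 32440236 to 32447259), was at 3.89, 170.0 and 0.538 CPM in SPS replicates 1 to 3 and 4.54, 2.30 and 0.878 CPM in Control replicates 1 to 3. Both were highest in SPS replicate 2, by 90.2 and 37.4 times over the next library. For Kcne2 the next library was Control replicate 1, and SPS replicate 1 was close to it.

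Folr1 codes for folate receptor alpha, which carries folate from blood to cerebrospinal fluid (ENSRNOG00000019902, chromosome 1, 166934459 to 166943592). It was at 1.36, 142 and 1.08 CPM in SPS replicates 1 to 3 and 0.874, 2.65 and 0.439 CPM in Control replicates 1 to 3. Outside SPS replicate 2 the highest value was in Control replicate 2, and Control replicate 3, with 2 reads, was the lowest of all.

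Cldn2 codes for claudin 2, a tight junction protein that forms cation and water pores (ENSRNOG00000054495, chromosome X, 111122551 to 111137769). It was at 0.453, 224 and 0.179 CPM in SPS replicates 1 to 3 and 0.437, 0 and 5.27 CPM in Control replicates 1 to 3. Tmem72, a transmembrane protein of little known function (ENSRNOG00000023340, chromosome 4, 148817513 to 148845267), had 0.181, 241 and 0 CPM in SPS replicates 1 to 3 and 0.262, 0 and 9.22 CPM in Control replicates 1 to 3. As for Kl and Sostdc1, each had its next highest value in Control replicate 3, with 24 reads for Cldn2 and 42 for Tmem72. None of the 10 gene spans overlapped another gene of the table.

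**Figure D1:**
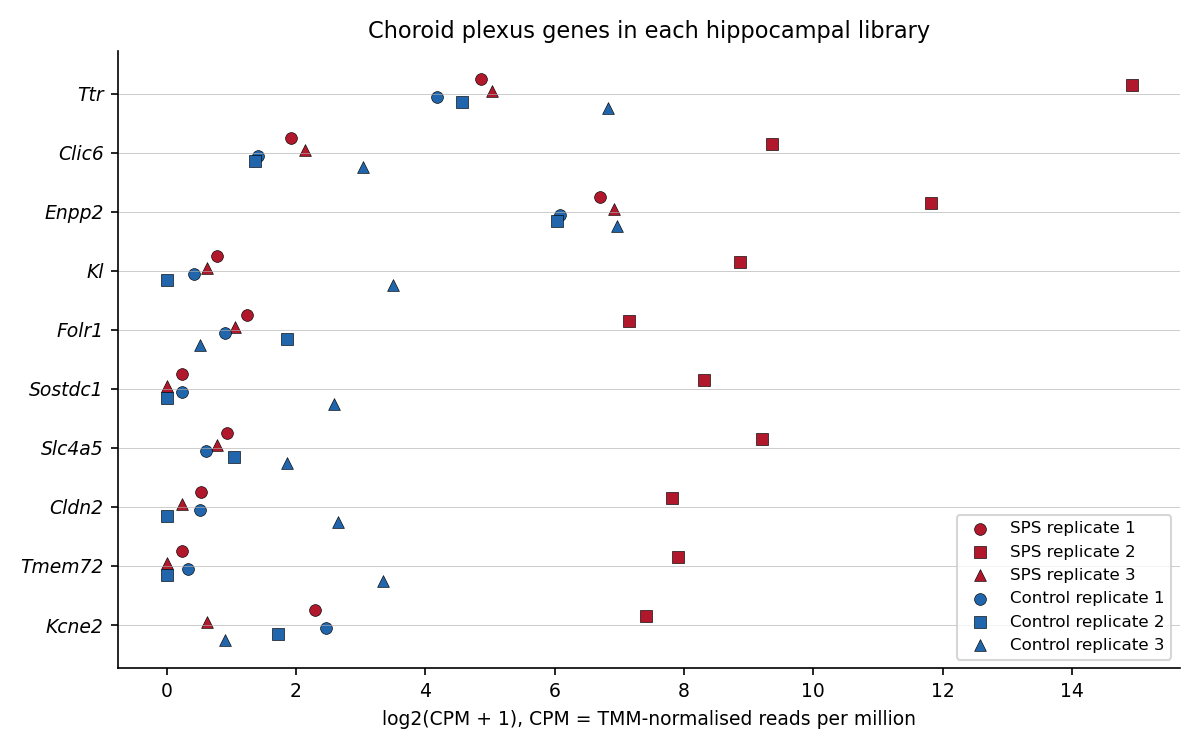
Level of each of the 10 choroid plexus genes in each library, as log2(CPM + 1); red points are SPS and blue points Control libraries, and circles, squares and triangles are replicates 1, 2 and 3. SPS replicate 2 lies far to the right for every gene, from 142 CPM for Folr1 to 31015 CPM for Ttr.

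All 10 genes had their highest value in SPS replicate 2, as did 22.3% of the 16710 genes with at least 1 read. All 10 were at least 10 times above every other library there (others set to at least 3 reads), a level that 117 genes, or 0.700%, reached. The 10 genes were chosen with earlier results of these data known, so these shares only describe them. Control replicate 3 was the highest of the other 5 libraries for 8 of the 10, against 19.8% of genes with at least 1 read. The exceptions were Folr1 and Kcne2. The SPS and Control values overlapped for all 10 genes, with SPS replicate 2 and without it. Among the genes with at least 1 read, 1.49% had every SPS library above every Control library and 1.58% every SPS library below. Without SPS replicate 2 these shares were 4.28% and 3.20%.

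Per transcript length the order of the genes also differed between libraries. In SPS replicate 2, values in FPKM (fragments per kilobase of transcript and per 1000000 fragments) were 55688 for Ttr, 1469 for Enpp2, between 182 and 201 for Clic6, Sostdc1, Folr1 and Slc4a5, 126 for Kl, 108 for Kcne2, 77.0 for Cldn2 and 42.0 for Tmem72. Over the other 5 libraries the median FPKM was 48.4 for Ttr, 38.3 for Enpp2, 1.45 for Kcne2, 1.32 for Folr1 and 0.754 for Clic6, and at most 0.260 for the remaining 5 genes. The ranges over those 5 libraries overlapped for Ttr, at 28.6 to 189 FPKM, and Enpp2, at 24.2 to 42.3, and likewise for Kcne2, Folr1 and Clic6. Ttr supplied 95.6% of the summed FPKM of the 10 genes in SPS replicate 2 and 52.5% and 55.3% in SPS replicates 1 and 3, against 49.9%, 56.7% and 77.9% in Control replicates 1 to 3. Enpp2 supplied 2.52% in SPS replicate 2 and 41.6% and 41.8% in SPS replicates 1 and 3, against 42.2%, 35.1% and 17.5% in Control replicates 1 to 3. Control replicate 3 thus lay between SPS replicate 2 and the other 4 libraries in the share of Ttr and of Enpp2.

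**Figure D2:**
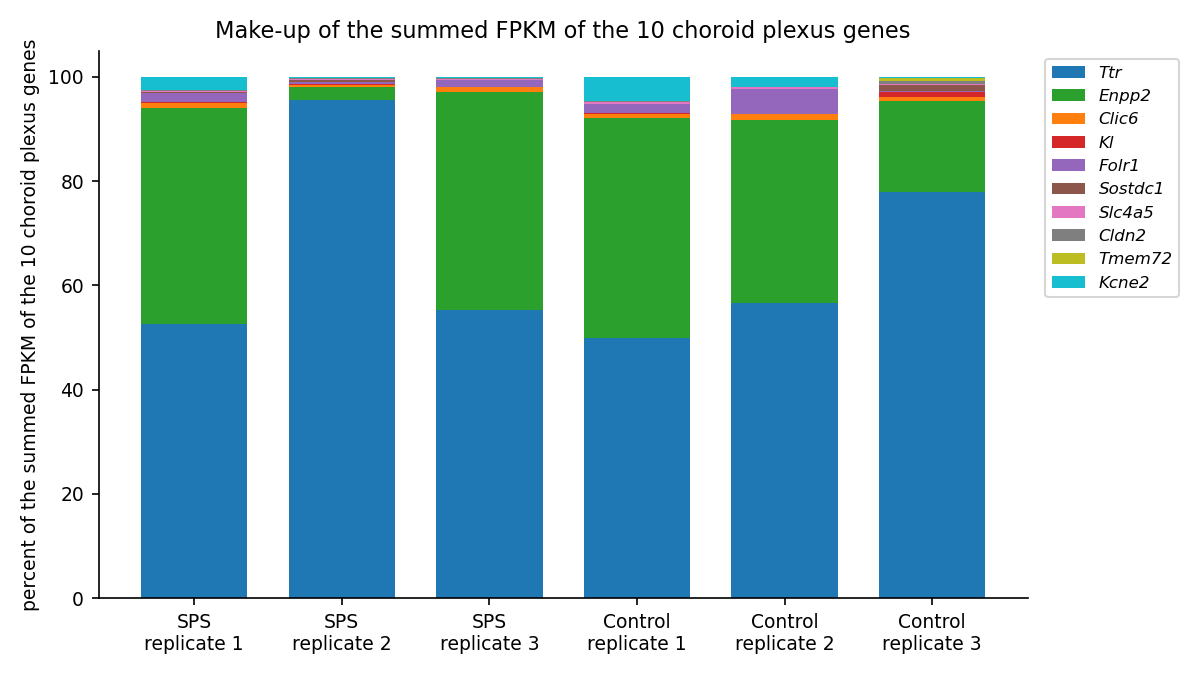
Make-up of the summed FPKM of the 10 choroid plexus genes in each library, as stacked bars in percent, each colour 1 gene. Ttr fills 95.6% of the bar of SPS replicate 2 and 77.9% of that of Control replicate 3, and Enpp2 takes 35.1% to 42.2% in the other 4 libraries.

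The levels of the 10 genes in SPS replicate 2 and in Control replicate 3 did not stand in 1 ratio. The CPM ratio of these libraries was 276 for Ttr (253 to 301, exact 95% interval from the counts, counting error only) and 225 for Slc4a5 (128 to 436). It was 29.1 for Enpp2 (26.8 to 31.7), 26.1 for Tmem72 (19.2 to 36.4), 42.5 for Cldn2 (28.4 to 66.7), 45.4 for Kl (34.0 to 62.0), 62.5 for Sostdc1 (41.5 to 98.9) and 90.2 for Clic6 (64.1 to 131). Those of Folr1, 323 (89.0 to 2671), and Kcne2, 194 (75.3 to 712), rested on 2 and 4 reads in Control replicate 3. The intervals of Ttr and Slc4a5 lay above those of Enpp2, Tmem72, Cldn2, Kl and Sostdc1.

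The comparison of SPS with Control asked which hippocampal transcripts differ after the stress. In the quasi-likelihood test of edgeR over 12441 genes, 0 genes, or 0%, had a Benjamini-Hochberg adjusted p under 0.05. Without adjustment 42 genes, or 0.338%, had a p under 0.05, of which 39, or 0.313% of those tested, were higher in SPS. Only 4 of the 10 genes, Ttr, Clic6, Enpp2 and Kcne2, passed the tool's filter on low counts, and the other 6 had too few reads outside SPS replicate 2. Mean Ttr was 10358 ± 17889 CPM in SPS and 50.8 ± 53.4 CPM in Control (SD, n = 3 each). Its log2 fold change, SPS minus Control, was 7.68 ± 2.80 (SE, edgeR unadjusted p = 0.0267, adjusted p = 1.00). The values were 6.02 ± 2.19 for Clic6 (unadjusted p = 0.0264), 3.91 ± 1.40 for Enpp2 (unadjusted p = 0.0244) and 4.44 ± 1.83 for Kcne2 (unadjusted p = 0.0431), each with an edgeR adjusted p of 1.00. The SD of each SPS mean exceeded the mean itself.

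Without SPS replicate 2 the direction of 3 of these 4 turned, and 0 of 12820 genes passed, with 19, or 0.148%, at an unadjusted p under 0.05. Mean Ttr was then 29.9 ± 2.52 CPM in SPS (SD, n = 2) and 50.8 ± 53.4 CPM in Control (SD, n = 3), with a log2 fold change of -0.76 ± 0.85 (SE, edgeR unadjusted p = 0.408). Clic6 was at -0.15 ± 0.95 (edgeR unadjusted p = 0.878) and Kcne2 at -0.21 ± 1.13 (unadjusted p = 0.859), while Enpp2 kept a positive value of 0.39 ± 0.41 (unadjusted p = 0.379), and every adjusted p was 1.00. When Control replicate 3 was left out as well, a choice made after the data were seen, edgeR gave 0.56 ± 0.44 for Ttr (unadjusted p = 0.239) and 0.90 ± 1.02 for Clic6 (unadjusted p = 0.404). Enpp2 was then at 0.74 ± 0.36 (edgeR unadjusted p = 0.0764) and Kcne2 at -0.61 ± 1.17 (unadjusted p = 0.617), and the adjusted p of the 4 lay between 0.646 and 0.880. The sign for Ttr and Clic6 thus depended on SPS replicate 2 and on Control replicate 3.

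Fitted without the filter, all 10 genes had positive log2 fold changes, from 3.87 for Enpp2 to 7.64 for Ttr. Of them 9 had an unadjusted p under 0.05, against 0.874% of the 16710 genes in that fit (0.646% counting those higher in SPS), and 0 had an adjusted p under 0.05. That fit admits the 6 genes that failed the filter, whose reads lay mostly in SPS replicate 2. The 10 genes were also chosen with earlier results of these data known, so the 9 are no test of the set. Without SPS replicate 2, 9 of the 10 values were negative and 0 had an unadjusted p under 0.05, against 0.336% of 16669 genes. They were lowest for Tmem72, at -4.64 ± 2.39 (SE, edgeR unadjusted p = 0.0842), and Sostdc1, at -3.80 ± 2.36 (unadjusted p = 0.142), where the SPS libraries left held 2 reads in all and Control replicate 3 held 42 and 23. Fitted values for genes with libraries at 0 depend on the prior count of the tool. For the 6 genes that failed the filter, the exact two-sided permutation test over samples on log2(CPM + 1) gave p between 0.5 and 0.9 with all libraries, and between 0.6 and 1.0 without SPS replicate 2. The smallest p these designs allow is 0.1 and 0.2. DESeq2 gave positive log2 fold changes and no p for all 10 genes, and 210 genes, or 1.26%, an unadjusted p under 0.05. With its default settings, used here, DESeq2 withholds p from genes with an outlying count. The 10 genes thus could not be among its calls.

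**Figure D3:**
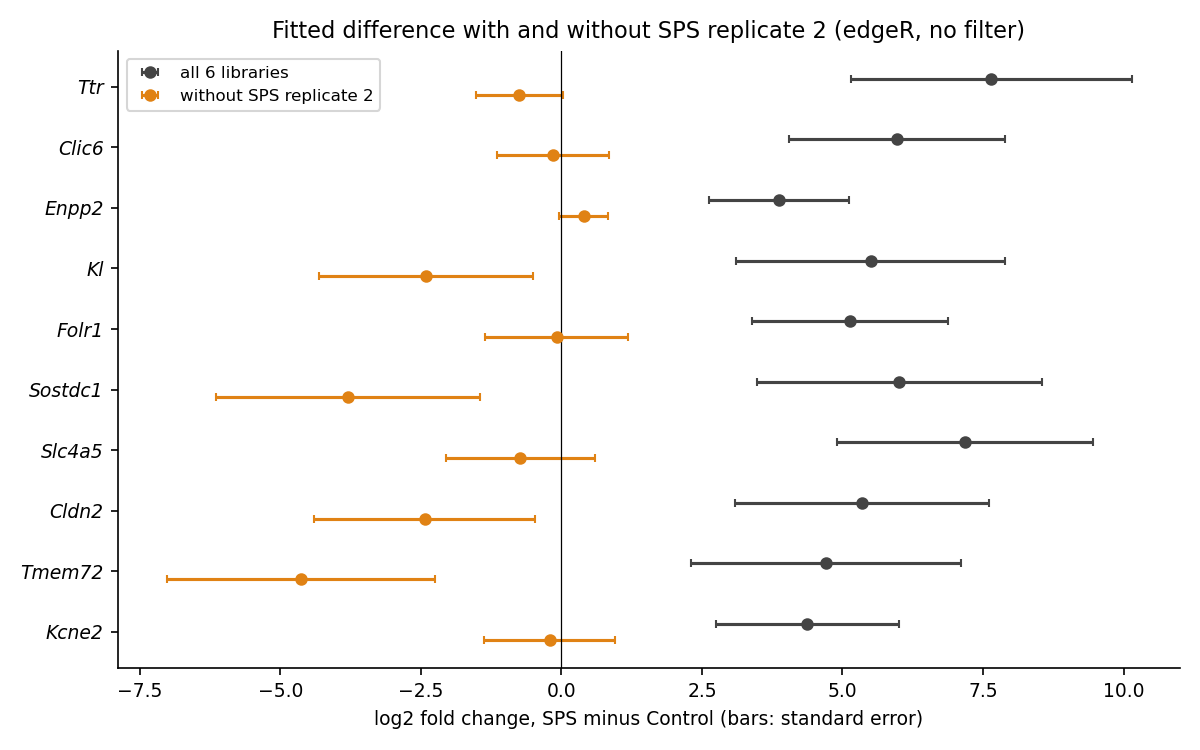
Log2 fold change, SPS minus Control, of the 10 genes from edgeR without a filter on low counts, with all 6 libraries (grey) and without SPS replicate 2 (orange); bars are standard errors. All grey points lie above 0, from 3.87 to 7.64, and the orange point of Enpp2 is the only one above 0.

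On the FPKM columns, by limma on log2(FPKM + 1), all 10 genes passed a mean FPKM of 0.5 and had positive log2 fold changes, from 1.39 ± 1.39 for Tmem72 to 3.12 ± 2.51 for Ttr (SE). None had an unadjusted p under 0.05, against 0.473% of 13745 genes (0.345% of 13610 without SPS replicate 2). Adding 1 understates the change of low genes. With 0.1 added in place of 1, Tmem72 was at 1.58. Ttr, at 3.13, was nearly unchanged and still below its edgeR value of 7.68. The 2 values differ in kind, since limma averages log2 values over the libraries of a group. In edgeR the group means of counts are fitted, where SPS replicate 2 weighs most for Ttr. Without SPS replicate 2, 7 genes passed, 5 with negative and 2 with positive values, the positive ones being Enpp2 at 0.42 ± 0.36 and Folr1 at 0.10 ± 0.58. Mean FPKM of Ttr without that library was 51.9 ± 4.91 in SPS (SD, n = 2) and 86.2 ± 89.0 in Control (SD, n = 3).

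Libraries that carry the same number resembled each other beyond their groups, and a fit with the number as a block gave smaller values. In edgeR with the block, Ttr was at 1.37 ± 2.49 (SE, unadjusted p = 0.601), Clic6 at 2.28 ± 2.12 (unadjusted p = 0.326), Enpp2 at 1.71 ± 1.26 (unadjusted p = 0.226) and Kcne2 at 2.03 ± 1.68 (unadjusted p = 0.277), each with an adjusted p of 0.967. Over all genes, 172, or 1.38%, had an unadjusted p under 0.05 in that fit. Of the 10 genes, 8 had a higher CPM in SPS replicate 1 than in Control replicate 1. Among those 8, Sostdc1 (2 reads in each library) and Cldn2 (5 in each) differed only by the scaling of the libraries. All 10 were higher in SPS replicate 2 than in Control replicate 2. In SPS replicate 3, only Folr1 was higher than in Control replicate 3, on 6 against 2 reads. The share of all genes higher in each pair was not counted.

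Other epithelial genes of the choroid plexus behaved in part like the 10. Of a list of 40, 26 were tested, and 26 of 26 had a positive log2 fold change with a median of 1.52, beside -0.02 over all genes tested. Without SPS replicate 2 it was 10 of 26, with a median of -0.49 beside 0.01. No gene of the list passed the test, and 4 had an unadjusted p under 0.05, against 0.338% of all genes tested. Mfrp, a membrane frizzled-related protein, was at 0.905, 680.4 and 2.51 CPM in SPS replicates 1 to 3 and 0.524, 0.884 and 5.93 CPM in Control replicates 1 to 3. F5, coagulation factor V, was at 0.543, 248 and 2.87 CPM in SPS replicates 1 to 3 and 0.262, 1.41 and 5.71 CPM in Control replicates 1 to 3. As for Ttr, Control replicate 3 was the next highest library for both. Ace, the angiotensin-converting enzyme, was at 605 CPM in SPS replicate 2 and Car14, a carbonic anhydrase, at 96.7 CPM, against at most 17.7 and 6.20 CPM elsewhere. The serotonin receptor gene Htr2c stood at 36.8, 424 and 125 CPM in SPS replicates 1 to 3 and 15.6, 64.7 and 84.1 CPM in Control replicates 1 to 3, and Calml4, a calmodulin-like protein, was at 51.5 CPM in SPS replicate 2 and at most 9.79 elsewhere. Of the 40, 10 were at least 10 times higher in SPS replicate 2 than in any other library, against 0.700% of genes with at least 1 read. Of defining genes, the water channel Aqp1 was at 249 CPM and the potassium channel Kcnj13 at 164 CPM in SPS replicate 2, against at most 13.8 and 15.4 CPM elsewhere, both in Control replicate 2. The transcription factor Otx2 had 0 reads in all 6 libraries, which allows up to 0.689 CPM in SPS replicate 2. Aqp1, Kcnj13 and Otx2 were picked after their values were seen.

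The ion pumps and carriers that drive fluid secretion are also used by neurons and glia, and their summed level differed less between libraries. It was 5071, 6412 and 6250 CPM in SPS replicates 1 to 3 and 4948, 4617 and 5941 CPM in Control replicates 1 to 3, over 27 genes. Of 25 tested, 20 had a positive log2 fold change, with a median of 0.20, and 19 without SPS replicate 2, with a median of 0.29. Of those not tested, Kcnq1 was at 14.7 CPM in SPS replicate 2 and at most 0.717 elsewhere, and Clcn2 had 0 reads in all libraries. The anion exchanger Slc4a2 was at 25.5, 372 and 26.5 CPM in SPS replicates 1 to 3 and 23.8, 32.5 and 30.5 CPM in Control replicates 1 to 3. Slc12a2, the sodium potassium chloride cotransporter, was at 114, 285 and 159 CPM in SPS replicates 1 to 3 and 82.0, 79.0 and 126 CPM in Control replicates 1 to 3. Car2, a carbonic anhydrase, was at 876 CPM in SPS replicate 2 and between 203 and 280.4 CPM elsewhere. The edgeR log2 fold change was 2.29 for Slc4a2 (unadjusted p = 0.0602), 0.96 for Slc12a2 (unadjusted p = 0.0608) and 1.16 for Car2 (unadjusted p = 0.0674).

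Genes that act with the 10 in other tissues had list medians close to 0, over the genes that passed the filter. That filter can leave out genes with reads in SPS replicate 2 alone. None of those tested passed in either direction, and none had an unadjusted p under 0.05. Among 15 tested genes of thyroid hormone and retinol handling, 4 had positive values with a median of -0.15. The retinol receptor Stra6 was at 28.0 CPM in SPS replicate 2 and at most 7.60 elsewhere, while Rbp4, the plasma retinol carrier that binds transthyretin, was highest in Control replicate 2, at 70.5 against 23.0 in SPS replicate 2. Among 8 genes of lysophosphatidic acid signalling, the median was 0.05. Lpar1, a receptor of that lipid, was at 123, 180.3 and 135 CPM in SPS replicates 1 to 3 and 82.6, 80.4 and 101 CPM in Control replicates 1 to 3 (log2 fold change 0.74, edgeR unadjusted p = 0.0521). Its SPS values all lay above the Control values, as for 1.54% of the 12441 genes tested. Enpp6, a choline phosphodiesterase, had 0.92 and Lpar6 had -0.59 as log2 fold change.

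Among 5 genes of the klotho and FGF receptor list the median was 0.18, with 0.60 for Fgfr2, -0.42 for Fgfr3 and 0.21 for the sheddase Adam10. Among 12 folate genes the median was 0.15. Slc19a1, the reduced folate carrier, was at 32.4 CPM in SPS replicate 2 and at most 10.1 elsewhere, Fpgs, which adds glutamates to folate, at 20.2 and at most 8.30, and Shmt2, a serine hydroxymethyltransferase, at 30.6 and at most 32.2. Among 12 genes of BMP and WNT signalling the median was -0.05, with log2 fold changes of -1.81 for Bmp7, -0.61 for Chrd and 0.62 for Nog, and Bmp7 was at 35.2 CPM in Control replicate 2 and at most 6.43 elsewhere. Among 12 claudin and tight junction genes the median was 0.15. Occludin, Ocln, was at 40.7 CPM in SPS replicate 2 and at most 10.2 elsewhere, Cldn1 at 43.0 and at most 8.48, and the myelin claudin Cldn11 at 855 and at most 559. Of the genes of that list not tested, Cldn19 was at 19.3 CPM in SPS replicate 2 and at most 0.896 elsewhere. Cldn3 was at 9.88 CPM there and 0 elsewhere, and Marveld3 had 0 reads in all libraries. Among 4 tested relatives of Kcne2 and Clic6 the median was -0.03, with 0.71 for Clic5, -0.52 for Clic1 and 0.35 for Clic4.

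Markers of other cell types also moved between these libraries, and their part in the values of the 10 genes was not tested. Ependymal markers, genes of the ciliated lining of the ventricles, summed to 223, 408 and 216 CPM in SPS replicates 1 to 3 and 110.0, 111 and 246 CPM in Control replicates 1 to 3. Of 12 tested, 11 were highest in SPS replicate 2, against 3133 of all 12441 genes tested. Of the 12, 4 had an unadjusted p under 0.05, against 0.338% of all genes tested. The median log2 fold change was 1.66, and 1.09 without SPS replicate 2. Dnah12 had 1.91, Cfap43 1.51 and Cfap126 3.33 as log2 fold change. Of that list Mia and Spag6l, each with 7 reads over all libraries, had 0 reads in SPS replicate 2. Markers of choroid plexus stroma and leptomeninges summed to 131, 410 and 187 CPM in SPS replicates 1 to 3 and 94.4, 792 and 89.1 CPM in Control replicates 1 to 3, with 3 of 12 tested highest in SPS replicate 2 and a median of -0.74. Lum, a matrix proteoglycan, was at 32.6 CPM in SPS replicate 2, Slc6a13, a GABA transporter, at 46.1 CPM in Control replicate 2, and Col6a1, a collagen, at 64.3 CPM in SPS replicate 1. Control replicate 3, next highest for most of the 10 genes, was the lowest library for this list.

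Oligodendrocyte markers summed to 15884, 30716 and 13325 CPM in SPS replicates 1 to 3 and 13278, 8738 and 10206 CPM in Control replicates 1 to 3. Of 12 tested, 4 had an unadjusted p under 0.05, against 0.338% of all genes tested, and the median was 0.82. The myelin genes Mobp and Mal had log2 fold changes of 1.04 and 0.88, and 0.60 and 0.51 without SPS replicate 2. Both were thus positive in both fits. Endothelial markers summed to 215, 435 and 311 CPM in SPS and 245, 549 and 263 CPM in Control, with log2 fold changes of -0.54 for Cdh5, 1.26 for Plvap and -0.30 for Slco1a4. Pericyte and smooth muscle markers summed to 137, 218 and 235 CPM in SPS and 151, 283 and 210 CPM in Control, with -0.51 for Vtn, -1.05 for Anpep and -0.69 for Kcnj8. Both vessel lists were highest in Control replicate 2. Haemoglobin and other blood genes summed to 198, 1105 and 716 CPM in SPS and 376, 1563 and 438 CPM in Control, with Hbb, Hba-a2 and Hba-a1 at -0.98, -0.10 and 0.05. Thalamic, habenular and striatal markers summed to 122, 492 and 125 CPM in SPS and 151, 330.1 and 137 CPM in Control, with log2 fold changes of -1.21 for Lef1 and 0.56 for Ppp1r1b, itself at 405 CPM in SPS replicate 2 and at most 187 elsewhere. That list was highest in SPS replicate 2 and next in Control replicate 2. Of the hippocampal neuron genes, Wfs1, Neurod6 and Snap25 had -0.63, -0.40 and -0.27. The endothelial, pericyte, stromal and blood lists were thus highest in Control replicate 2, the choroid plexus and oligodendrocyte lists in SPS replicate 2.

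**Figure D4:**
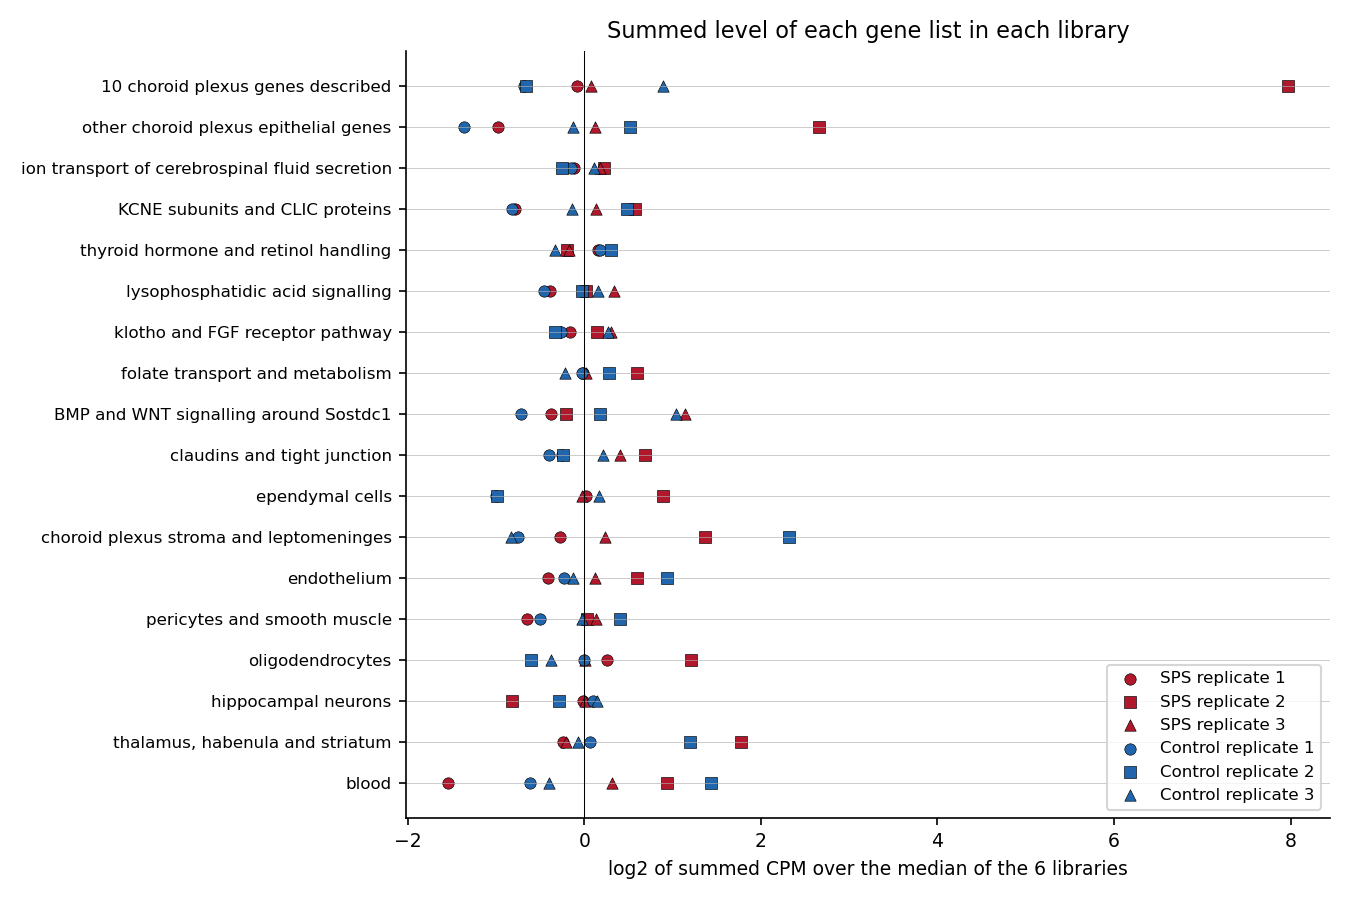
Summed CPM of each gene list in each library, as log2 of the ratio to the median of the 6 libraries; red points are SPS and blue points Control libraries, with circles, squares and triangles for replicates 1, 2 and 3. The 10 choroid plexus genes stand apart in SPS replicate 2, at 37427 CPM in sum against at most 277 CPM elsewhere.

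Genes most alike in profile were sought among 11872 tested genes of at least 1 CPM on average. The measure was the root mean square difference, over the 6 libraries, between a gene's centred log2(CPM + 1) values and the mean of those of Ttr, Clic6, Enpp2 and Kcne2, and 1 library carries most of it. The 10 nearest were Mfrp (0.61), F5 (0.67), Ace (0.79), Wfikkn2 (0.98), Rab11fip1 (1.10), Mdk (1.19), Itpripl1 (1.21), Lama3 (1.24), Car14 (1.24) and Vat1l (1.27). Wfikkn2, a secreted protease inhibitor that binds growth factors, was at 2.26, 167 and 1.43 CPM in SPS replicates 1 to 3 and 1.75, 7.78 and 1.98 CPM in Control replicates 1 to 3. Mdk, the growth factor midkine, was at 15.8, 727 and 27.8 CPM in SPS replicates 1 to 3 and 20.4, 63.6 and 37.5 CPM in Control replicates 1 to 3. For both, the next highest library was Control replicate 2 and not Control replicate 3.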

How the data were processed

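RNA of 6 hippocampus samples had been depleted of ribosomal RNA, made into stranded libraries and sequenced for 150 cycles, per the labels' protocols. CASAVA 1.8 and HISAT2 are named in the submitters' processing notes, with the human build hg19, although the identifiers are rat; which rat build and quantifier were used, and whether counting used strand, is not given in the sources used here. The FPKM values and the estimated counts, 1 of each per gene and library, were made and deposited by the authors, per the file headers. The deposited counts were scaled between libraries and not whole. Between 99.4% and 99.6% of values in a library were whole multiples of 1 step, to within 0.05 reads, so they were divided by the step and rounded.

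The 10 genes and all lists were chosen with earlier results of these data known. The main test was edgeR 4.0.16 (R 4.3.3) with TMM normalisation, filterByExpr, a quasi-likelihood model with group as its only term and Benjamini-Hochberg adjustment over all genes tested; the SE is the log2 fold change divided by the root of F. CPM used TMM-scaled totals of all reads. Alternatives were limma 3.58.1 on log2(FPKM + 1), DESeq2 1.42.0, other filters and scalings, a replicate block and leaving out libraries. Beside the 10, genes were named by smallest p within each list (6 for choroid plexus, 3 for others) and by likeness of profile; some genes that this rule names are not reported here. The tests were tested on simulated counts.

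Deviations from the group means correlated at 0.407, 0.367 and 0.675 between libraries of the same number, each over the limit of 0.1. SPS replicate 2 and Control replicate 1, of unlike number, were also over it, at 0.164, and the other unlike pairs were negative. The numbers were taken from the data to pair the samples in the block fit alone. The main fit, with group as its only term, ignores this pairing. No libraries agreed within sampling noise (chi-square per degree of freedom at least 7.22). Intervals and limits for counts of 0 (3 reads) cover counting error only.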

Additional observations from a re-analysis of the deposited data

How the results depend on the processing

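The count of 0 genes held under all 19 alternatives, with 11 to 989 genes at an unadjusted p under 0.05; the 989 came without SPS replicate 2 and Control replicate 3, the 11 without Control replicate 2 or without both libraries numbered 2. The median log2 fold change over Ttr, Clic6, Enpp2 and Kcne2 was 5.23. It was 2.16 by limma on log2(FPKM + 1), with or without the filter, and 1.87 with the replicate block. Leaving out 1 library gave -0.18 to 5.79. Without both libraries numbered 2 it was -0.41, without SPS replicate 2 and Control replicate 3 0.65, without SPS replicate 2 and with no filter -0.18, and by limma without SPS replicate 2 -0.13. Leaving out 1 library gave -0.76 to 9.03 for Ttr, -0.15 to 7.07 for Clic6 and -0.21 to 5.14 for Kcne2, each negative without SPS replicate 2. Without both libraries numbered 2 the 3 were at -1.12, -0.51 and -0.31, with no filter and without SPS replicate 2 at -0.75, -0.15 and -0.20, and by limma without that library at -0.23, -0.081 and -0.18. Kcne2 was at -0.61 without SPS replicate 2 and Control replicate 3. Enpp2 stayed positive under all 19, at 0.20 to 4.44. No call changed with the block, since there was none. Outside SPS replicate 2, 6 of the 10 genes had 27 to 62 reads over 5 libraries, which limits any comparison there.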

Other observations

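Of the 117 genes at least 10 times higher in SPS replicate 2 than in any other library, 10 were the choroid plexus genes described and 10 were on the list of other choroid plexus genes. Among the rest, picked after their values were seen, were genes of retinoid turnover known from the eye. Rpe65, the retinoid isomerohydrolase, was at 41.1 CPM in SPS replicate 2 and at most 1.72 CPM elsewhere. Abca4, a retinoid transporter, was at 109.8 CPM there and at most 3.94 CPM elsewhere. The retinoid genes Rdh5 and Lrat did not follow. Rdh5 was at 0 CPM in SPS replicate 2 and at most 1.10 CPM elsewhere, and Lrat had 0 reads in all libraries. The organic anion transporter Slco1a2 was at 144 CPM in SPS replicate 2 and at most 1.10 CPM elsewhere. Pla2g5, a secreted phospholipase, was at 96.5 against at most 2.15 CPM.

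Genes of the choroid plexus list differed in Control replicate 2, and those named here were picked after their values were seen. Igf2, a growth factor, was at 25.9, 1102 and 151 CPM in SPS replicates 1 to 3 and 31.5, 467 and 81.0 CPM in Control replicates 1 to 3. Its binding protein Igfbp2 was at 9.05, 840 and 21.3 CPM in SPS replicates 1 to 3 and 11.4, 302 and 5.49 CPM in Control replicates 1 to 3. Other genes of the list were low in Control replicate 2, with Car12, a carbonic anhydrase, at 12.2 CPM and Slc29a4, a monoamine transporter, at 4.95 CPM. Lmx1a, a transcription factor, was at 0 there, but at most 0.717 CPM in any library other than SPS replicate 2. Kl, Sostdc1, Cldn2 and Tmem72 had 0 reads in Control replicate 2, and Sostdc1 and Tmem72 also had 0 in SPS replicate 3. In Control replicate 2 the markers of stroma and leptomeninges were at their highest sum, 792 CPM.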
